A study of Mus musculus with 18 samples.

Results

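The Notch pathway genes described here are 31 genes chosen by symbol among the 55335 genes counted in single nuclei of the mouse forebrain at embryonic day 14 (E14). They comprise the receptors Notch1 to Notch4, the ligands Dll1, Dll3, Dll4, Jag1, Jag2 and Dner, the nuclear complex genes Rbpj, Maml1, Maml2 and Maml3, the Hes and Hey genes Hes1, Hes5, Hes6, Hey1, Hey2 and Heyl, the feedback gene Nrarp, the fringe glycosyltransferases Lfng, Mfng and Rfng, the inhibitors Numb and Numbl, the ubiquitin ligases Mib1 and Mib2 and the protease genes Adam10, Psen2 and Ncstn. Membership was set by gene symbol, with no threshold on a measured value, though earlier results of these data were known when the members were chosen. The question was how these genes are distributed from radial glia to neurons, and whether their levels differ in forebrain that lacks 1 or both intact copies of Myt1l, which encodes a zinc-finger transcription factor of neurons held to repress Notch signalling.

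Animals of 3 genotypes were compared: wild type (WT), heterozygous (Het) and homozygous knockout (KO) embryos of a C57BL/6 line that carries the S710fsX frameshift allele of Myt1l. The allele is constitutive, so every cell of a Het or KO embryo carries it, and KO animals of the line die at birth. Each genotype had 3 animals, and the paper names 3 litters as the source of the E14 animals, with both sexes in the study. Each animal was sequenced in 2 runs, which gave 18 libraries. Groups came from the sample titles, because the genotype tag of the run 1 libraries reads wild type in all 9 of them. The paper describes the E14 tissue as dissected forebrain and, for the isolation of nuclei, as prefrontal cortex. In each class of nuclei a lower value means less RNA of a gene relative to all RNA counted in that class, not fewer cells of it. A class pools clusters that differ in level, so a shift in their shares can also move a class value, which was not tested.

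In Notch signalling, a ligand on one cell binds a receptor on its neighbour, ADAM10 and then the gamma-secretase complex cut the receptor, and the released intracellular domain joins RBPJ and a Mastermind-like (MAML) coactivator on DNA. In the embryonic forebrain this switches on Hes1 and Hes5, whose proteins repress proneural genes and keep radial glia dividing. Cells that start to differentiate express Dll1 under proneural factors and so present ligand to the radial glia around them, while Numb and the fringe enzymes set how strongly a cell can send or receive the signal.

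Promoter sequences are shown for 3 members because the data bear on them. Hes5 and Lfng were among the members with far higher levels in radial glia-like than in neuron-like nuclei. Maml2 was the member that changed most often in KO neurons. They are the 250 bases before the annotated start in RefSeq (build GRCm38.p6), written 5′ to 3′ on the gene's strand. A RefSeq promoter was found for 26 of the 31 members, giving 34 promoters. Hes1, Hey1, Heyl, Mfng and Mib1 had no entry. In the first pair of sequences, capitals mark the RBPJ core TGGGAA, or TTCCCA where it lies on the other strand.
Hes5 promoter, chr4:154960673-154960922 (plus strand): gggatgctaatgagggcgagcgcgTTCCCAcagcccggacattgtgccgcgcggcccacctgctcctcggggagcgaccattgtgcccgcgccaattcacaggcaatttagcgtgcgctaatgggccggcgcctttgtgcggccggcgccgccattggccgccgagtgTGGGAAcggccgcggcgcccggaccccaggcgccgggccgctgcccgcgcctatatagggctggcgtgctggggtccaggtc
Lfng promoter, chr5:140607091-140607340 (plus strand): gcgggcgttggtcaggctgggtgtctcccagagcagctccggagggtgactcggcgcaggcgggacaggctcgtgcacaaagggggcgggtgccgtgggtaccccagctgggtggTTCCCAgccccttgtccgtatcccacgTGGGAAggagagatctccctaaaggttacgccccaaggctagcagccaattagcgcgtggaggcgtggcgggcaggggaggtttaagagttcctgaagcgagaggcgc

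The Hes5 window held TGGGAA at 226 and 82 bases before the start, both times within the longer core TGTGGGAA. The longer core, searched on both strands, occurred at least once in 1.46% of the 32851 promoters of the RefSeq set and at least 2 times in 0.027%. In Lfng, TGGGAA lay at 135 and 108 bases before the start. Rbpj was the other member with 2 copies in 1 window, and 2.77% of all promoters had as many. The 2 windows shown are not typical of members far higher in radial glia-like nuclei. Notch1, Notch2, Notch3 and Nrarp, also far higher there, had 0 copies, and Hey2 had 1. Across the family TGGGAA was found in 8 of the 34 promoters (23.5%), against 21.6% of all promoters, so the core as such was about as frequent in the members as elsewhere.

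In the Maml2 sequence, capitals mark AAGTT, the core letters of the MYT1 family motif, or AACTT where it lies on the other strand.
Maml2 promoter 1, chr9:13297708-13297957 (plus strand): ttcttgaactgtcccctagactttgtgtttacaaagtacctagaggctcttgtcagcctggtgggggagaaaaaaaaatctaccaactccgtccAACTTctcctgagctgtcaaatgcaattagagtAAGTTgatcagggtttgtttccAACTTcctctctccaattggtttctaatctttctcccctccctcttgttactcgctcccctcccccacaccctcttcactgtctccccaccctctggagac

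In Maml2, 3 copies of AAGTT stood at 156, 123 and 101 bases before the Maml2 start, and a Numb promoter was the only other member window with 3. As many or more were found in 1.89% of all promoters. No copy lay in the other Maml2 promoter of the RefSeq set. AAGTT was present in 11 of the 34 member promoters (32.4%), against 35.3% of all promoters. A match of these short letters is a description of the window and not evidence of binding.

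After filters on counts, genes, mitochondrial share and doublets, 194494 of 261143 barcodes were kept as nuclei (74.5%), with a median of 2523 UMIs and 1538 genes. The summed UMIs per animal ran from 42966926 in KO 1 to 73799664 in WT 2. Clustering without the 31 members gave 43 clusters, of which those with the markers of a class were named after it: radial glia-like (RG-like, 30540 nuclei), excitatory intermediate progenitor-like (eIP-like, 21926), inhibitory progenitor-like (InhP-like, 1934), excitatory neuron-like (ExN-like, 54508), inhibitory neuron-like (InhN-like, 54284) and Cajal-Retzius-like (CR-like, 5202). In the CR-like class, Trp73 and Reln were among the leading genes of cluster 28 (1986 nuclei). Those of cluster 26 (2499 nuclei) held no marker of the class, though Reln, Trp73, Lhx5 and Lhx1 were detected there. Unnamed clusters held 24444 nuclei. The largest of them, cluster 2 with 13477 nuclei, was led by Otx2 and Lrp2 and had markers of both radial glia and inhibitory progenitors. Another, cluster 16 with 4269 nuclei, had Dlx1 among its leading genes and markers of inhibitory neurons and inhibitory progenitors. The inhibitory progenitor-like class may thus hold only a small part of that lineage. Its nuclei per animal ran from 90 in KO 1 to 359 in KO 2, so its values per animal rest on few counts. A diencephalic neuron-like cluster came almost wholly from 1 animal, with 751 of its 753 nuclei in Het 1, and was not tested. Without Het 1, Maml2 and Jag2 were still called in KO excitatory neuron-like nuclei and 0 members were called in Het. Within a run, 972 barcodes were shared between animals. Myt1l itself was higher in KO excitatory neuron-like nuclei, at 2560, 2868 and 2636 CPM (counts of a gene scaled to the total of the class) in KO against 1945, 2235 and 2128 CPM in WT, with Het at 2247, 2501 and 2437 CPM (log2 change 0.38, SE 0.081, edgeR adjusted p = 0.046). The allele is a frameshift and the fate of its RNA was not tested, so the Myt1l level does not check the labels.

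The members divided into those of progenitors and those of neurons. Levels are CPM of summed counts per animal and class, as mean ± SD over all 9 animals regardless of genotype, and since the classes were built from these nuclei they are described without a test. Of the 31 members, 14 had their highest mean in RG-like nuclei, 9 in eIP-like, 2 in InhP-like, 1 in ExN-like and 5 in InhN-like nuclei, among these 5 classes. Between RG-like and ExN-like nuclei, 18 members were higher in every one of the 9 animals' RG-like sums than in any ExN-like sum, 5 (Dll3, Jag2, Rfng, Numbl and Dner) were lower, and 8 overlapped. Between the 2 neuron classes 27 members overlapped. Only Maml3 and Dner were higher and only Hey1 and Numbl lower in InhN-like than in ExN-like nuclei by the same measure. Overlapping ranges do not mean equal levels: the InhN-like mean of Notch1 was 2.11 times its ExN-like mean. The share of all genes apart by this measure was not taken, so these counts do not set the members apart from other genes.

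**Figure D1:**
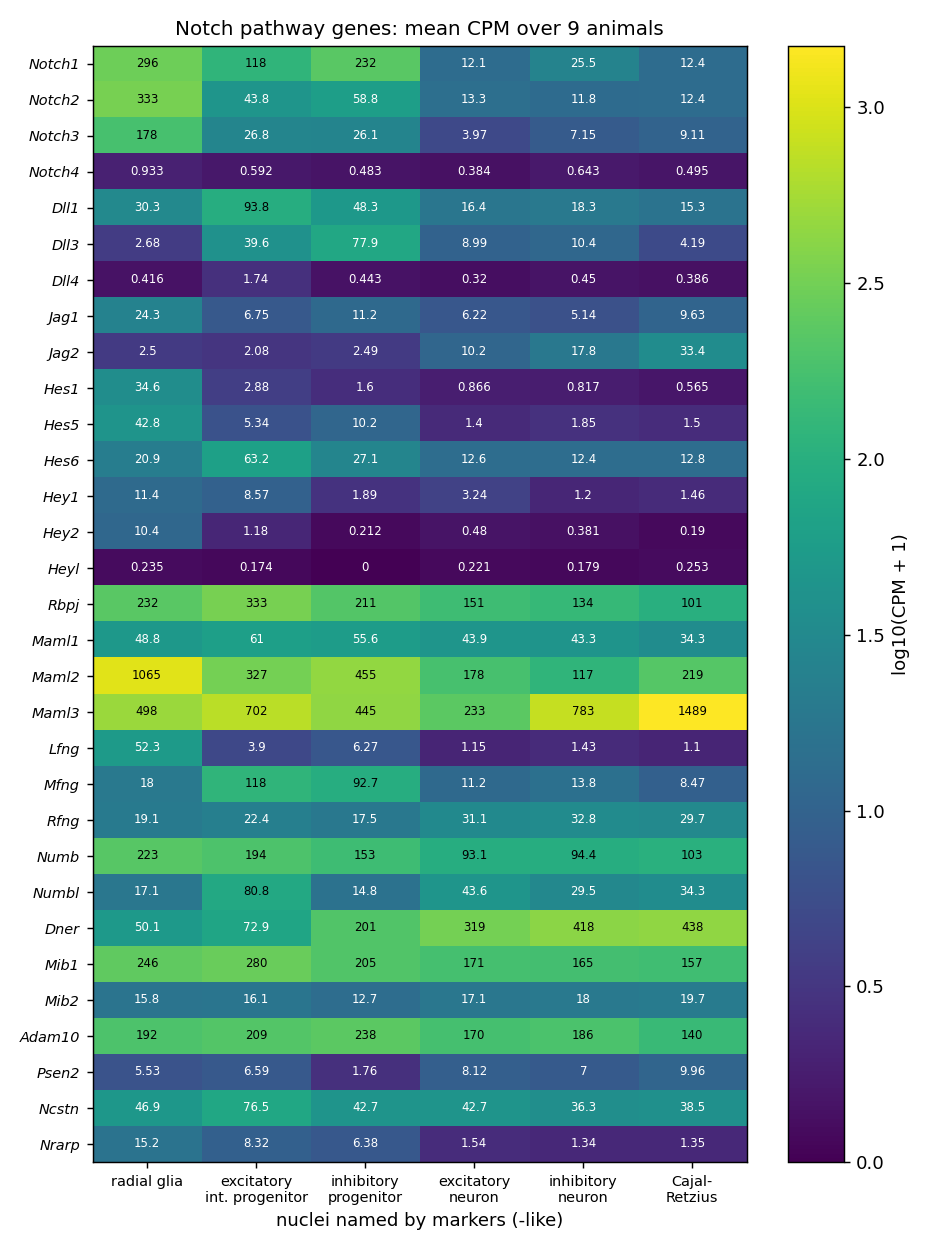
Heatmap of the 31 members (rows, ordered by role) in 6 classes of nuclei (columns); each cell prints the mean CPM over 9 animals and is coloured by log10(CPM + 1). Notch1 to Notch3, Hes1, Hes5, Lfng and Maml2 have their highest values in the RG-like column, Dll1, Mfng and Hes6 in the intermediate progenitor-like column, and Dner and Jag2 in the CR-like column, followed by the InhN-like column.

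Among the receptors, Notch1, the main receptor of cortical progenitors, stood at 296 ± 17.7 CPM in RG-like and 232 ± 24.9 CPM in InhP-like nuclei, whose ranges over animals overlapped. It was at 118 ± 8.94 CPM in eIP-like, 25.5 ± 5.36 CPM in InhN-like and 12.1 ± 5.22 CPM in ExN-like nuclei. RG-like nuclei thus had 24.5 times the ExN-like level. Notch2 showed a steeper first step, from 333 ± 18.3 CPM in RG-like to 43.8 ± 6.63 CPM in eIP-like and 13.3 ± 2.81 CPM in ExN-like nuclei. Notch3 ran from 178 ± 9.69 CPM through 26.8 ± 4.46 CPM to 3.97 ± 1.5 CPM across the same 3 classes, a 44.8-fold difference from first to last. Pooled microglia and macrophage-like nuclei held Notch3 at 7.51 CPM, above its ExN-like mean, so this fold rests on a low ExN-like value. Notch4, a vascular receptor, was at most 0.933 CPM in the 5 classes. The small mural and fibroblast-like class, pooled over animals, held Notch3 at 739 CPM and Notch4 at 129 CPM. No cluster was named endothelial, and whether this class also holds endothelial nuclei was not tested.

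Most ligands were highest in other classes than the receptors. Dll1, which proneural factors switch on, was at 93.8 ± 9.99 CPM in eIP-like nuclei, 3.10 times its RG-like level of 30.3 ± 3.94 CPM. Within these progenitors it was highest in cluster 14, led by Eomes, Gadd45g and Neurog2, at a mean of 209 CPM. Dll3, which acts inside the cell that makes it and does not activate receptors on neighbours, was at 77.9 ± 20.4 CPM in InhP-like and 39.6 ± 7.42 CPM in eIP-like nuclei, overlapping ranges, against 2.68 ± 0.754 CPM in RG-like nuclei. Jag1 was the one ligand with its highest mean in RG-like nuclei, at 24.3 ± 5.1 CPM. Jag2 was instead a neuronal ligand here, at 17.8 ± 3.44 CPM in InhN-like and 10.2 ± 2.94 CPM in ExN-like nuclei with overlapping ranges, and at 33.4 ± 5.62 CPM in CR-like nuclei. Dner, an EGF-repeat protein of neurons reported to bind Notch, was at 418 ± 19.7 CPM in InhN-like and 319 ± 34.3 CPM in ExN-like nuclei, against 50.1 ± 7.71 CPM in RG-like nuclei. Dll4, a vascular ligand, had means of at most 1.74 CPM in the 5 classes and stood at 19.8 CPM in the pooled mural and fibroblast-like class.

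The target genes Hes1, Hes5, Hey1, Hey2 and Nrarp all had their highest mean in RG-like nuclei among the 5 classes. The pooled mural and fibroblast-like class held more Hey2, Nrarp and Hes1 (60.3, 43.9 and 37.9 CPM), and the pooled oligodendrocyte progenitor-like class more Hes5 (52.9 CPM). Hes1 stood at 34.6 ± 4.8 CPM in RG-like nuclei, 12 times its level in eIP-like nuclei (2.88 ± 1.41 CPM) and 40.0 times that in ExN-like nuclei (0.866 ± 0.44 CPM). Hes5, whose promoter is printed above, was at 42.8 ± 6.38 CPM, 5.34 ± 1.54 CPM and 1.4 ± 0.397 CPM in the same 3 classes. Hey2 and Nrarp, which feeds back on the Notch complex, had 21.6 and 9.82 times their ExN-like level in RG-like nuclei. Hey1 had a smaller ratio, with 11.4 ± 1.37 CPM in RG-like and 8.57 ± 0.944 CPM in eIP-like nuclei, whose ranges overlapped. Hes6, which counters HES1 and promotes differentiation, ran the other way, with 63.2 ± 9.81 CPM in eIP-like against 20.9 ± 3.19 CPM in RG-like nuclei.

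**Figure D2:**
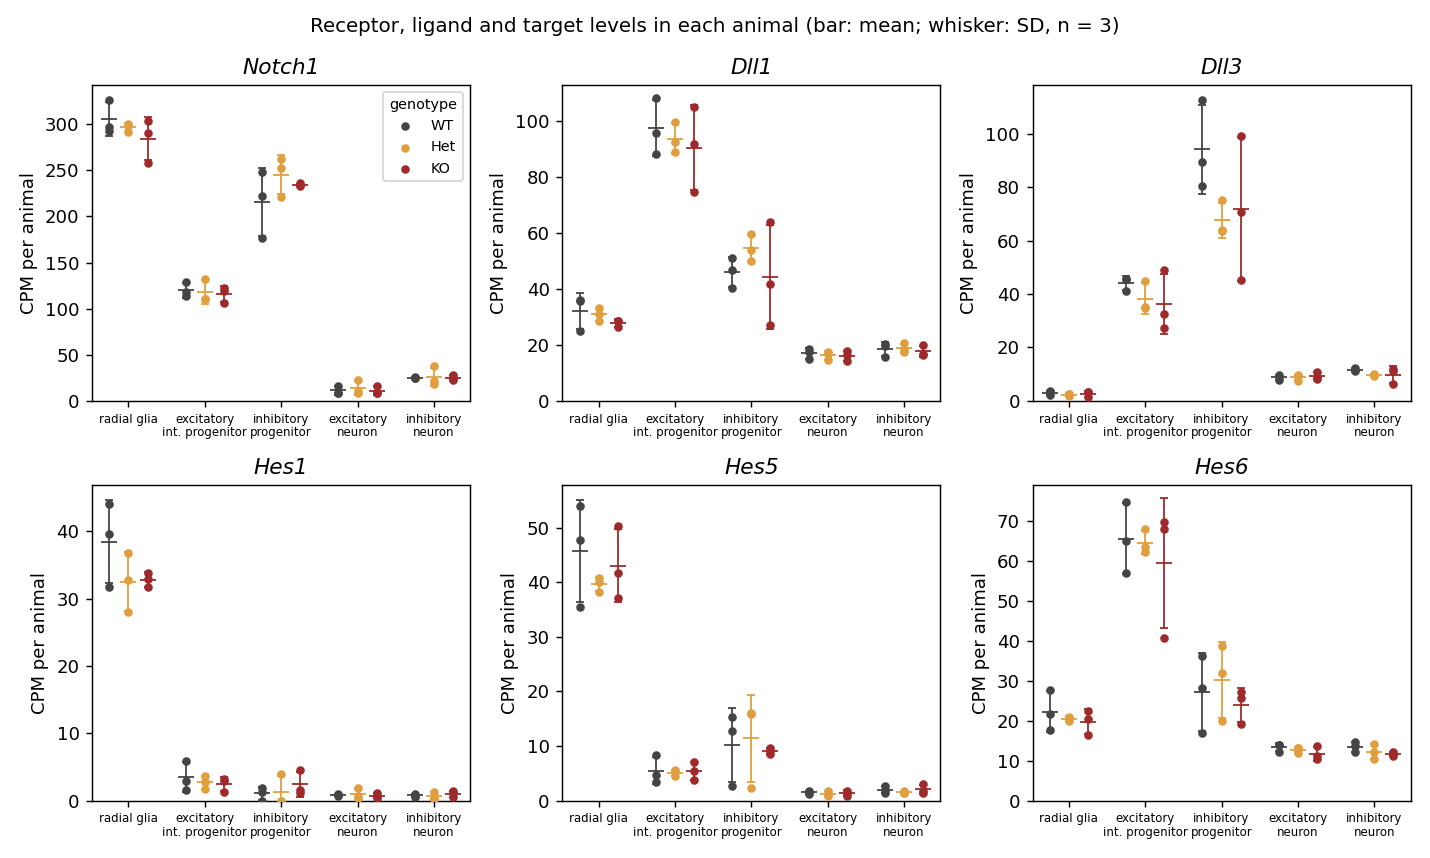
CPM of Notch1, Dll1, Dll3, Hes1, Hes5 and Hes6 in 5 classes of nuclei; each point is 1 animal, coloured by genotype, the bar is the mean and the whisker the SD over the 3 animals of a genotype. Notch1, Hes1 and Hes5 are highest in RG-like nuclei and Dll1 and Hes6 in eIP-like nuclei in all 3 genotypes.

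The nuclear complex was present in all 5 classes. Rbpj, the DNA-binding protein, ranged over them from 333 ± 19.4 CPM in eIP-like to 134 ± 13.7 CPM in InhN-like nuclei. The Mastermind-like genes differed from one another: Maml1 stayed between 43.3 and 61.0 CPM in the same classes, Maml2 went from 1065 ± 56.6 CPM in RG-like to 178 ± 22.6 CPM in ExN-like and 117 ± 23.1 CPM in InhN-like nuclei, and Maml3 was at 783 ± 42.2 CPM in InhN-like against 233 ± 27.2 CPM in ExN-like nuclei. Maml3 reached 1489 ± 261 CPM in CR-like nuclei. Maml2 and Maml3 span 411 and 419 kb and enclose other genes on their own strand, 4 in Maml2 and 11 in Maml3, so part of their intronic signal cannot be assigned with certainty. Genes on the same strand also overlap Notch2, Dner and Mib1 (2 each) and Notch1, Jag2, Numb and Numbl (1 each).

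The fringe genes split by class. Lfng was at 52.3 ± 12.9 CPM in RG-like and 1.15 ± 0.369 CPM in ExN-like nuclei, the largest ratio of the 31 members between these classes (45.4). This ratio rests on a very low ExN-like value, and that of Notch3 was close (44.8), so their order is uncertain. Mfng peaked in eIP-like nuclei at 118 ± 5.72 CPM, 6.57 times RG-like. Rfng was highest in InhN-like nuclei at 32.8 ± 4.57 CPM, overlapping ExN-like nuclei. Of the inhibitors, Numb was highest in RG-like nuclei (223 ± 10.5 CPM) and Numbl in eIP-like nuclei (80.8 ± 5.79 CPM). Over the means of the 5 classes, Mib1, which makes ligands endocytose, lay between 165 and 280 CPM, Adam10 between 170 and 238 CPM and Ncstn between 36.3 and 76.5 CPM. Mib1 and Ncstn were higher in eIP-like than in RG-like nuclei without overlap. Psen2 means ran from 1.76 to 8.12 CPM, and its RG-like range overlapped the eIP-like and both neuron ranges.

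The progenitor levels also differed between clusters of the RG-like class. In the cycling cluster 0 (14929 nuclei) Dll1 averaged 11.2 CPM, against 63.1 CPM in cluster 7 (9215 nuclei), which had fewer transcripts of cycling genes, and 41.5 CPM in cluster 9 (6396 nuclei). Hes1 was similar in the 3, at 35.0, 30.4 and 38.0 CPM. The unnamed cluster 2 held the highest Notch1 mean of these progenitors, 413 CPM, with Hes5 at 67.8 CPM and Hes1 at only 13.9 CPM.

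Genotype comparisons used edgeR's quasi-likelihood test on counts summed per animal, fitted over all genes of a class. A call required an adjusted p under 0.05 and a log2 change beyond 0.2. Of the members, 28 passed the low-count filter in RG-like, 28 in eIP-like, 17 in InhP-like, 27 in ExN-like, 28 in InhN-like and 21 in CR-like nuclei. Heyl passed in none. Same-numbered animals were weakly correlated across genotypes in 4 of these classes (RG-like, eIP-like and both neuron classes), at r = 0.106 to 0.311. This pairing was read from the same counts and not from the labels. The fit with the number as a block is therefore given as an alternative.

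In KO against WT, 2 of 27 members tested were called in ExN-like nuclei, where 1.02% of all genes tested were called: Maml2 rose and Jag2 fell. With the block, 6 members were called (Maml2, Numb, Rbpj and Notch2 higher, Jag2 and Dner lower), against 6.71% of all genes. DESeq2 called 3 (Maml2, Numb and Jag2), against 0.848% of genes. Here and below DESeq2 was run without the low-count filter, so its shares are over more genes. In ExN-like nuclei it called 354 of 41767 genes, where edgeR called 193 of 18993. Sums for 6 members did not overlap between the 3 KO and the 3 WT animals, with Rbpj, Maml2 and Numb higher and Dner, Rfng and Jag2 lower, where 17.7% of all genes did not overlap. The median log2 change was -0.01 over the 27 members and -0.01 over all genes, with 13 members higher in KO. An unadjusted p under 0.05 was found for 7 members and for 13% of all genes.

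In InhN-like nuclei 0 of 28 members were called by edgeR, where 0.0106% of all genes were, and 5 members had an unadjusted p under 0.05, as had 5.8% of genes. The block called Rbpj and Maml2, both higher, against 0.818% of genes, and DESeq2 called Maml2 alone, against 0.0551% of genes. Rbpj, Maml2 and Numb were higher and Hes6 and Rfng lower without overlap, where 10.7% of all genes did not overlap.

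In the progenitor classes edgeR called 0 members: 0 of 28 in RG-like, 0 of 28 in eIP-like and 0 of 17 in InhP-like nuclei, and 0% of all genes in each. At an unadjusted p under 0.05 there were 0, 1 and 1 members, against 2.94%, 4.22% and 3.42% of all genes in the same order. DESeq2 called 0 members and 0% of genes in each, and the block called 0 members, with 0.00598%, 0.0603% and 0% of genes. In RG-like nuclei Mib1 was higher and Dner and Psen2 were lower without overlap, where 7.64% of genes did not overlap, and the median change of the members was -0.06. In eIP-like nuclei Hey1, Mib2, Maml2 and Numb were higher and Dner lower without overlap, where 9.02% of genes did not overlap, and in InhP-like nuclei Numb was higher, where 9.39% of genes did not. In CR-like nuclei 0 of 21 were called, where 0.0748% of genes were, and 3 had an unadjusted p under 0.05 in edgeR, as had 6.98% of genes. DESeq2 called 0 of them, against 0.0221% of genes, and the block 0, against 0.108%. Rbpj, Maml2 and Numb were higher and Mib2 lower there without overlap, where 13% of genes did not overlap. The summed level of 6 eIP markers was also apart in CR-like nuclei, at 54.5 to 59.5 CPM in WT and 61.6 to 78.6 CPM in KO, with 3 of the 6 having a higher mean in KO and none at 0. Their part in these differences was not tested.

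**Figure D3:**
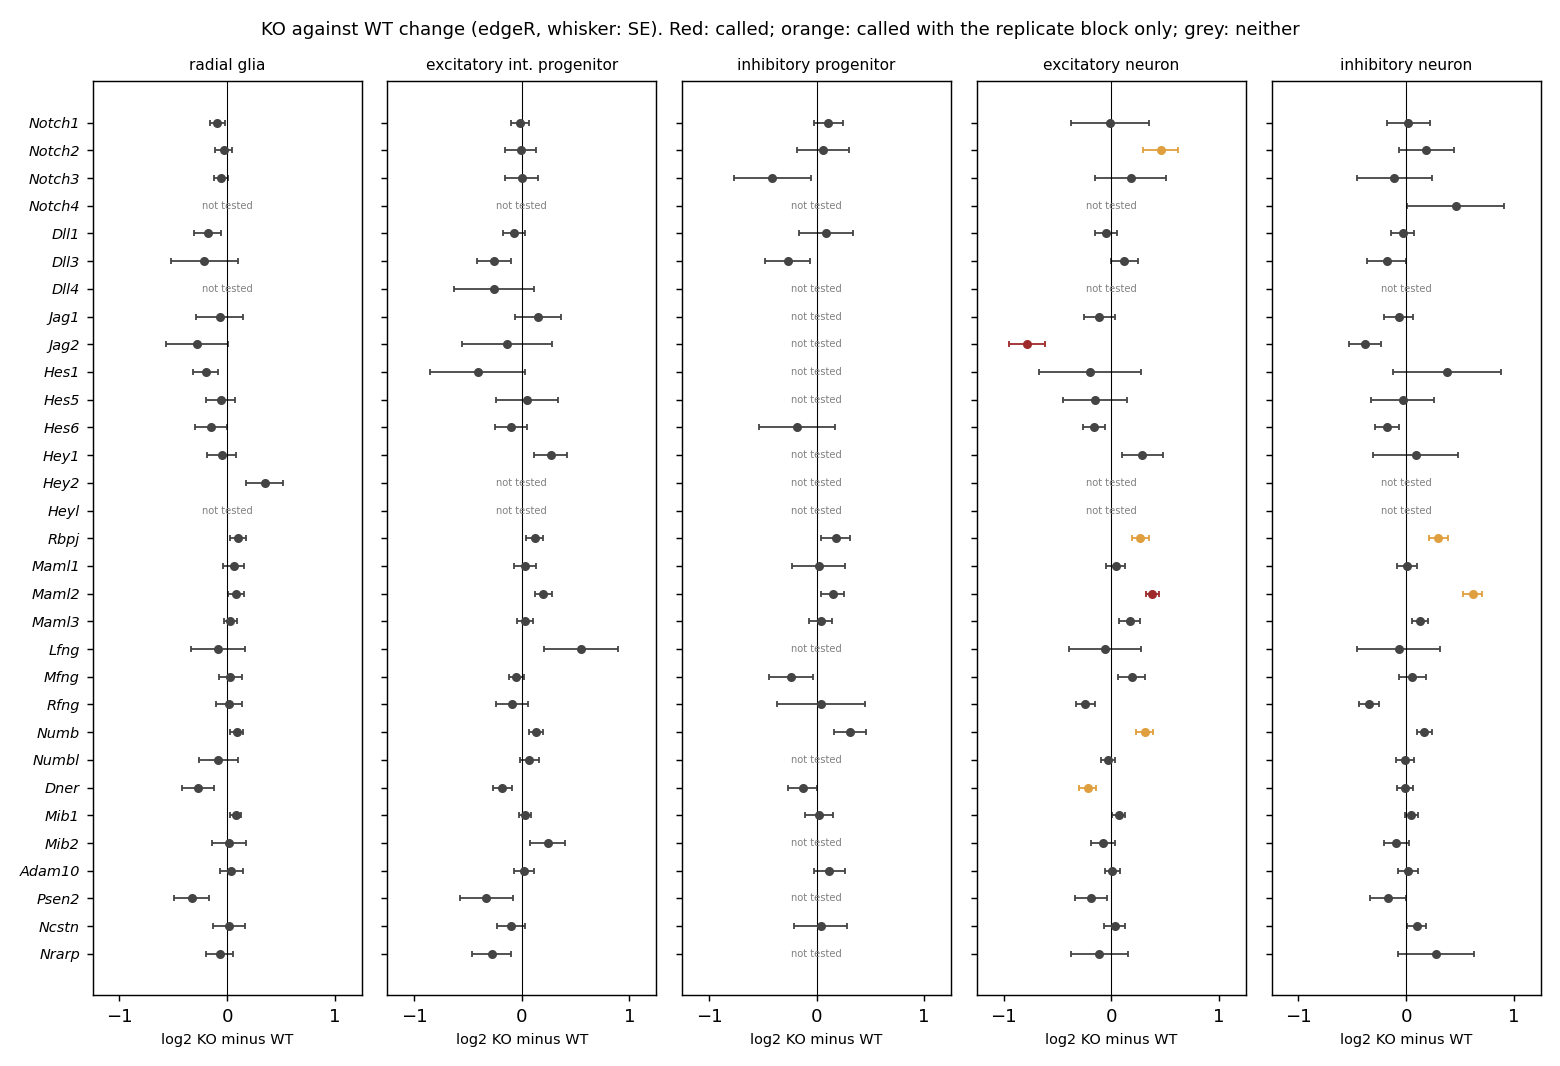
log2 change of KO against WT (x axis) with SE for each member (rows) in 5 classes of nuclei (panels), from edgeR. Red marks the calls of the fit without a block, which are Maml2 and Jag2 in ExN-like nuclei, orange the members called only with the replicate block, grey the rest, and members under the low-count filter read "not tested".

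Maml2 (ENSMUSG00000031925.17, chr9:13297957-13709388, plus strand), a coactivator of the RBPJ complex, was the member with the most calls. In ExN-like nuclei it stood at 172, 162 and 152 CPM in WT 1 to 3, at 163, 169 and 161 CPM in Het and at 211, 204 and 205 CPM in KO. All 3 KO animals were above all WT and Het animals. It rose by 0.38 on the log2 scale (SE 0.0615), 1.3-fold, with an edgeR adjusted p = 0.0124, 6.95e-05 with the block and 6.16e-05 in DESeq2. The call was lost without WT 3 (0.33, adjusted p = 0.068 in edgeR) or without KO 2 (0.37, adjusted p = 0.0545 in edgeR). In InhN-like nuclei Maml2 was at 95.3, 101 and 90.9 CPM in WT, 120, 107 and 108 CPM in Het and 159, 144 and 130 CPM in KO. The 3 genotypes did not overlap, in the order WT, Het, KO. The difference of 0.62 (SE 0.0886), 1.54-fold, missed the threshold in edgeR (adjusted p = 0.0838) and passed with the block (0.00034) and in DESeq2 (9.71e-06).

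Maml2 was not called in progenitors. RG-like nuclei had 982, 1119.8 and 999 CPM in WT, 1029, 1139 and 1064 CPM in Het and 1071, 1132 and 1053 CPM in KO (0.08, SE 0.0738, edgeR adjusted p = 1). These ranges overlapped. In eIP-like nuclei the values were 330, 312 and 299 CPM in WT, 306, 321 and 311 CPM in Het and 394, 340 and 330 CPM in KO, with KO 3 just above WT 1 (0.20, SE 0.078, edgeR adjusted p = 0.993). InhP-like nuclei had 443, 428 and 397 CPM in WT, 457, 449 and 507 CPM in Het and 494, 428 and 495 CPM in KO (0.15, SE 0.108, edgeR adjusted p = 1). Since Maml2 is high in RG-like nuclei, the summed level of 8 radial glia markers in the neurons was set beside it: 159 to 173 CPM in WT and 150 to 164 CPM in KO ExN-like nuclei, 239 to 243 CPM in WT and 213 to 252 CPM in KO InhN-like nuclei, with 2 and 3 of the 8 markers having a higher mean in KO and none at 0. Of the 12 marker lists, none had KO animals apart from WT animals in these 2 classes. The part of these marker levels in the Maml2 differences was not tested.

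Rbpj (ENSMUSG00000039191.12, chr5:53466152-53657362, plus strand) was higher in KO in both neuron classes. ExN-like nuclei had 134, 144 and 141 CPM in WT, 143, 163 and 141 CPM in Het and 166, 175 and 157 CPM in KO. This difference of 0.27 (SE 0.0812) passed only with the block (edgeR adjusted p = 0.15 without it and 0.00289 with it). In InhN-like nuclei Rbpj was at 119, 126 and 116 CPM in WT, 129, 145 and 129 CPM in Het and 146, 159 and 133 CPM in KO. There the KO animals were again above all WT animals (0.30, SE 0.0906, edgeR adjusted p = 0.658, 0.0181 with the block). Progenitor values overlapped between KO and WT. They were 220, 231 and 223 CPM in WT, 224, 250 and 223 CPM in Het and 229, 254 and 233 CPM in KO in RG-like nuclei (0.10, SE 0.0719, edgeR adjusted p = 1). They were 302, 334 and 328 CPM, 318, 338 and 348 CPM and 323, 371 and 337 CPM, in the same order of genotypes, in eIP-like nuclei (0.12, SE 0.0776, edgeR adjusted p = 0.993). InhP-like nuclei had 198, 189 and 193 CPM in WT, 234, 199 and 256 CPM in Het and 183, 231 and 217 CPM in KO, where the 3 Het animals but not all KO animals were above WT (0.18, SE 0.134, edgeR adjusted p = 1).

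Maml3 (ENSMUSG00000061143.15, chr3:51685907-52105076, minus strand), another coactivator, was called in no class and in cluster 6, and with the block also in clusters 3 and 8 (edgeR adjusted p = 0.0436 and 0.0256, where 1.55% of genes were called in cluster 8). It stood at 194, 199 and 245 CPM in WT, 231, 252 and 271 CPM in Het and 215, 228 and 264 CPM in KO ExN-like nuclei (0.17, SE 0.0957, edgeR adjusted p = 0.501). In InhN-like nuclei it was at 690, 785 and 772 CPM in WT, 778, 812 and 790 CPM in Het and 764, 820 and 836 CPM in KO (0.13, SE 0.0738, edgeR adjusted p = 0.883). Both sets overlapped between genotypes. Its progenitor values were 462, 487 and 517 CPM in WT, 533, 507 and 500 CPM in Het and 503, 468 and 509 CPM in KO RG-like nuclei (change of 0.03). eIP-like nuclei had 649, 737 and 721 CPM, 696, 711 and 686 CPM and 672, 676 and 766 CPM in WT, Het and KO (0.03), and InhP-like nuclei 430, 436 and 448 CPM, 440, 460 and 443 CPM and 470, 408 and 472 CPM (0.04). SEs were 0.0604 to 0.106 and each of the 3 had an edgeR adjusted p of 0.993 or 1.

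Jag2 (ENSMUSG00000002799.6, chr12:112907819-112929776, minus strand) was the ligand called lower in KO without the block. In ExN-like nuclei it was at 15.4, 11.3 and 11.9 CPM in WT, 11.9, 9.79 and 9.55 CPM in Het and 7.17, 5.28 and 9.31 CPM in KO. Each KO animal was below each WT and Het animal. Its log2 change was -0.78 (SE 0.168), a ratio of 0.582, with an edgeR adjusted p = 0.0469, 0.000682 with the block and 0.00222 in DESeq2. The call sat at the threshold and was lost without any one of WT 1, WT 2, WT 3, Het 2, Het 3, KO 1 or KO 2 (edgeR adjusted p 0.0625 to 0.161). In InhN-like nuclei Jag2 stood at 24.4, 17.4 and 19.2 CPM in WT, 19.2, 15.4 and 18.6 CPM in Het and 15.2, 12.1 and 18.7 CPM in KO, with KO 3 above WT 2 (-0.38, SE 0.15, edgeR adjusted p = 0.815). Progenitor values were near the detection limit. They lay between 1.63 and 3.67 CPM in RG-like nuclei over all animals (2.34, 2.82 and 3.08 in WT, 2.56, 2.72 and 1.7 in Het, 3.67, 1.63 and 2.01 in KO) and gave a change of -0.28 (SE 0.289, edgeR adjusted p = 1). In eIP-like nuclei they were 2.55, 1.18 and 2.9 CPM, 3.53, 1.73 and 1.11 CPM and 2.23, 1.52 and 1.97 CPM in WT, Het and KO (-0.14, SE 0.419, edgeR adjusted p = 0.993). In InhP-like nuclei Jag2 had 12 counts in all and was not tested.

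Numb (ENSMUSG00000021224.15, chr12:83794034-83921934, minus strand), which removes Notch receptors from the cell surface, was higher in KO than in WT animals of both neuron classes. Without the block edgeR called it in neither class, and the block and DESeq2 called it in ExN-like nuclei alone. ExN-like nuclei had 85.1, 86.8 and 83.2 CPM in WT, 92.7, 96.9 and 82.1 CPM in Het and 109, 103 and 99.2 CPM in KO. Every KO animal was above every WT and Het animal. The difference of 0.31 (SE 0.0769) missed the threshold in edgeR (adjusted p = 0.08) but passed with the block (0.00136) and in DESeq2 (0.0291). InhN-like nuclei had 87.3, 94.8 and 87.4 CPM in WT, 97.7, 94.6 and 89.1 CPM in Het and 100, 101 and 97.5 CPM in KO (0.17, SE 0.0702, edgeR adjusted p = 0.826). InhP-like nuclei had 115, 160 and 143 CPM in WT, 149, 156 and 131 CPM in Het and 169, 179 and 177 CPM in KO (0.31, SE 0.147, edgeR adjusted p = 1). In both, KO animals were above WT animals. eIP-like nuclei had 189, 184 and 180 CPM in WT, 205, 206 and 191 CPM in Het and 195, 201 and 197 CPM in KO (0.13, SE 0.0653, edgeR adjusted p = 0.993). RG-like values overlapped, at 223, 228 and 209 CPM in WT, 220, 222 and 208 CPM in Het and 243, 227 and 226 CPM in KO (0.09, SE 0.0611, edgeR adjusted p = 1).

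**Figure D4:**
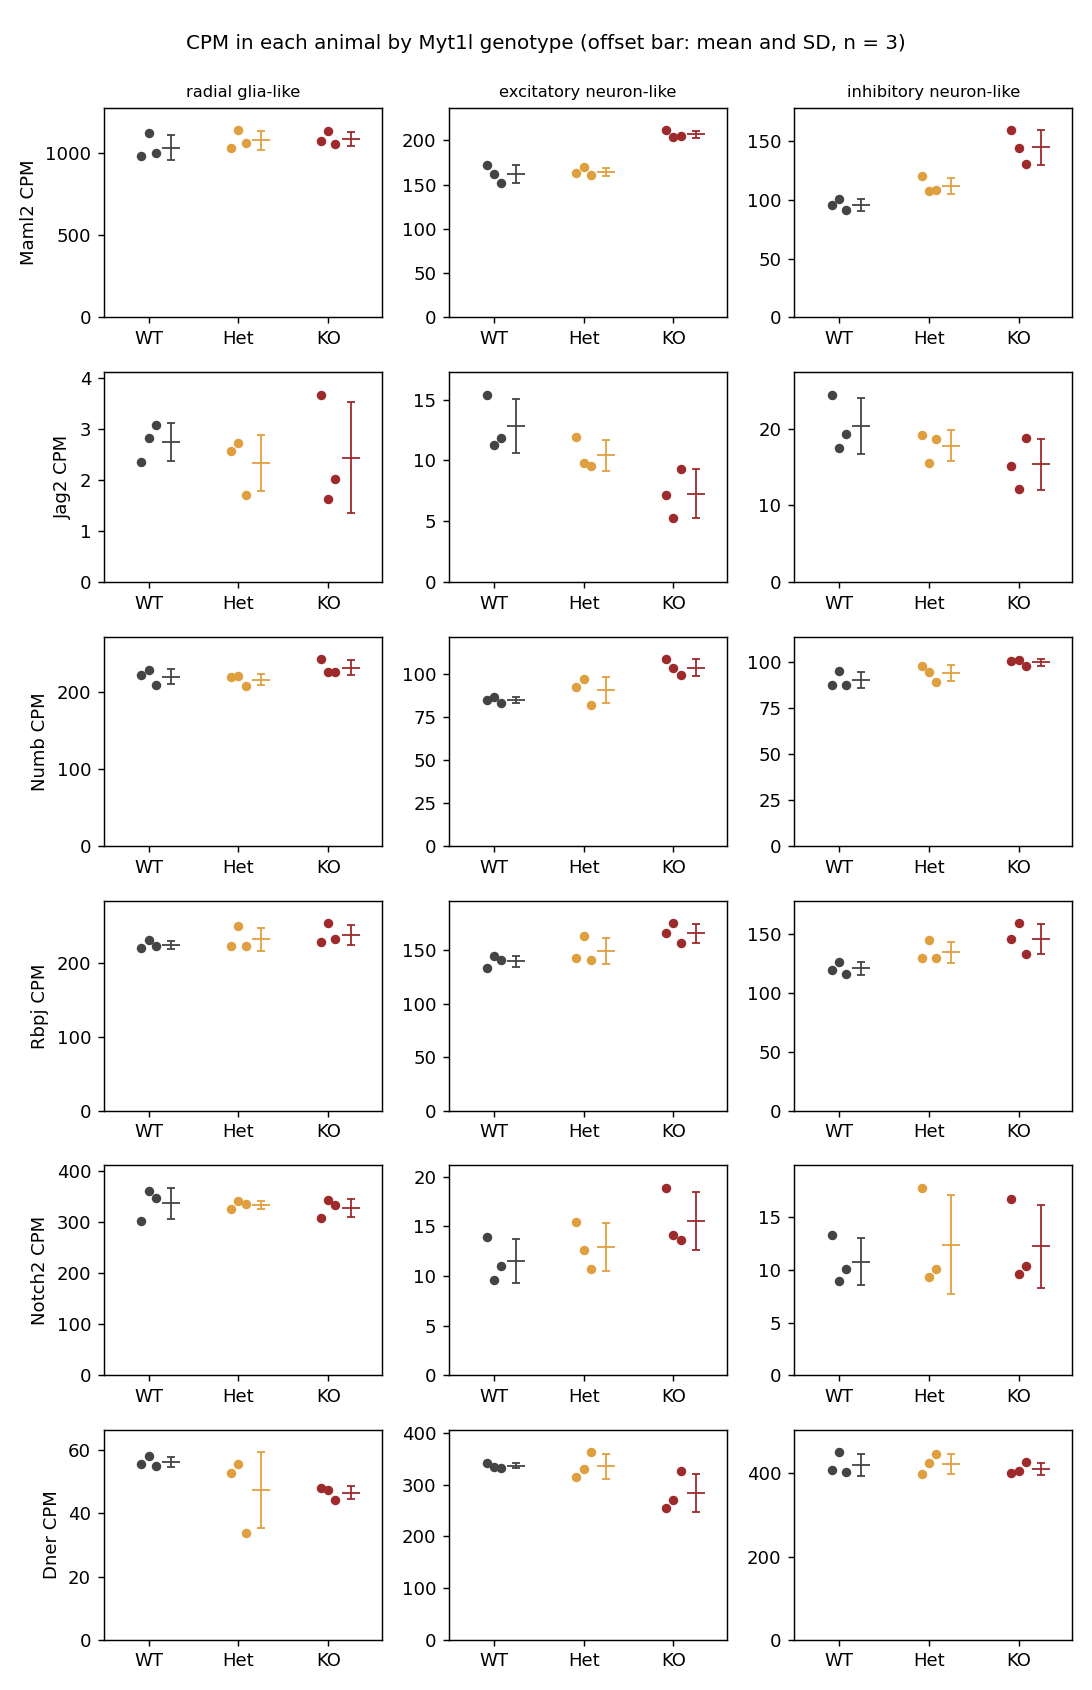
CPM of Maml2, Jag2, Numb, Rbpj, Notch2 and Dner (panels) in RG-like, ExN-like and InhN-like nuclei; points are single animals by genotype, with the mean and SD of the 3 animals beside them. In ExN-like nuclei the KO points of Maml2, Rbpj and Numb lie above all WT points and those of Jag2 and Dner below, while in RG-like nuclei those of Maml2, Rbpj, Numb, Jag2 and Notch2 overlap WT.

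Dner (ENSMUSG00000036766.12, chr1:84369839-84696221, minus strand) was at 342, 335 and 333 CPM in WT, 316, 330 and 363 CPM in Het and 256, 271 and 327 CPM in KO ExN-like nuclei. The KO animals were below the WT animals, KO 3 narrowly (-0.22, SE 0.078, edgeR adjusted p = 0.231, 0.0156 with the block, which called it). In InhN-like nuclei, where Dner is higher, the genotypes overlapped at 408, 451 and 403 CPM in WT, 399, 424 and 446 CPM in Het and 400, 406 and 427 CPM in KO (-0.01, SE 0.073, edgeR adjusted p = 0.995). RG-like nuclei had 55.8, 58.3 and 55 CPM in WT, 52.9, 55.7 and 33.8 CPM in Het and 48, 47.4 and 44.2 CPM in KO (-0.27, SE 0.146, edgeR adjusted p = 1). eIP-like nuclei had 75.1, 73.7 and 78.3 CPM in WT, 83.5, 73 and 74.3 CPM in Het and 70.8, 56.5 and 70.5 CPM in KO (-0.18, SE 0.0903, edgeR adjusted p = 0.993). In both, the KO animals were below the WT animals without a call. InhP-like values overlapped, at 235, 197 and 215 CPM in WT, 191, 168 and 215 CPM in Het and 213, 188 and 191 CPM in KO (-0.13, SE 0.133, edgeR adjusted p = 1).

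Notch1 (ENSMUSG00000026923.15, chr2:26457903-26516663, minus strand) was not called in any class. RG-like nuclei had 292, 297 and 327 CPM in WT, 292, 298 and 301 CPM in Het and 258, 291 and 304 CPM in KO (-0.09, SE 0.0695, edgeR adjusted p = 1). eIP-like nuclei had 129, 113 and 118 CPM in WT, 133, 110 and 110 CPM in Het and 107, 119 and 123 CPM in KO (-0.02, SE 0.0833, edgeR adjusted p = 0.994). InhP-like nuclei had 176, 222 and 248 CPM in WT, 221, 262 and 253 CPM in Het and 236, 234 and 234 CPM in KO (0.11, SE 0.134, edgeR adjusted p = 1). The genotypes overlapped in all 3. In ExN-like nuclei Notch1 was low, at 16.3, 8.58 and 8.93 CPM in WT, 22.9, 8.48 and 10.2 CPM in Het and 16.4, 8.6 and 8.19 CPM in KO (-0.01, SE 0.361, edgeR adjusted p = 0.996). In InhN-like nuclei it was at 26.3, 24.9 and 24.7 CPM in WT, 37.5, 21.6 and 18.5 CPM in Het and 28.5, 24.8 and 22.4 CPM in KO (0.02, SE 0.201, edgeR adjusted p = 0.995). The animal numbered 1 was the highest of each genotype in both neuron classes.

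Notch2 (ENSMUSG00000027878.11, chr3:98013527-98150361, plus strand) shared that pattern and was called in ExN-like nuclei only with the block. Its values there were 13.9, 9.56 and 11 CPM in WT, 15.5, 12.6 and 10.7 CPM in Het and 18.9, 14.1 and 13.6 CPM in KO, so that each KO animal was above the WT animal of its number while the groups overlapped. Their difference was 0.46 (SE 0.163, edgeR adjusted p = 0.233, 0.00316 with the block). In InhN-like nuclei Notch2 was at 13.3, 8.97 and 10.1 CPM in WT, 17.8, 9.36 and 10.1 CPM in Het and 16.7, 9.61 and 10.3 CPM in KO (0.19, SE 0.257, edgeR adjusted p = 0.964). Progenitor values overlapped between genotypes. RG-like nuclei had 303, 361 and 347 CPM in WT, 326, 341 and 336 CPM in Het and 309, 343 and 335 CPM in KO (-0.03, SE 0.0781). eIP-like nuclei had 54.4, 35.8 and 44.8 CPM, 48, 36.3 and 43.5 CPM and 50.6, 36.5 and 44.4 CPM (-0.01, SE 0.143), and InhP-like nuclei 52.3, 51.7 and 63.1 CPM, 87.7, 59.2 and 53 CPM and 45.4, 68.4 and 48.8 CPM (0.06, SE 0.238). The edgeR adjusted p was 1 in each of the 3.

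Dll1 (ENSMUSG00000014773.13, chr17:15367354-15376872, minus strand) had KO changes between -0.18 and 0.09 in the 5 classes, none of them called. In eIP-like nuclei, its highest class, it was at 108, 88.3 and 95.8 CPM in WT, 92.3, 89.1 and 99.7 CPM in Het and 74.6, 91.6 and 105 CPM in KO (-0.07, SE 0.101, edgeR adjusted p = 0.993). RG-like nuclei had 36, 24.8 and 35.6 CPM in WT, 30.9, 33.3 and 28.6 CPM in Het and 28.6, 26.3 and 28.7 CPM in KO (-0.18, SE 0.126, edgeR adjusted p = 1). InhP-like nuclei had 51.1, 40.3 and 46.8 CPM in WT, 59.8, 50.1 and 54 CPM in Het and 27.2, 41.7 and 64 CPM in KO (0.09, SE 0.253, edgeR adjusted p = 1). In each the KO range included or overlapped the WT range. ExN-like nuclei had 17.5, 14.9 and 18.5 CPM in WT, 17.4, 14.5 and 16.9 CPM in Het and 16.4, 14.2 and 17.7 CPM in KO (-0.05, SE 0.102, edgeR adjusted p = 0.903). InhN-like nuclei had 19.7, 15.8 and 20.2 CPM in WT, 20.5, 18.2 and 17.6 CPM in Het and 16.4, 16.8 and 19.9 CPM in KO (-0.03, SE 0.107, edgeR adjusted p = 0.984).

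Dll3 (ENSMUSG00000003436.11, chr7:28293553-28302238, minus strand) varied widely between KO animals in progenitors. InhP-like nuclei had 89.4, 80.6 and 113 CPM in WT, 63.8, 75.1 and 64 CPM in Het and 45.4, 70.6 and 99.2 CPM in KO (-0.27, SE 0.206, edgeR adjusted p = 1), with KO 1 lowest. The KO 1 value came from 90 nuclei, so its counting error is large. eIP-like nuclei had 41.3, 45.8 and 45.6 CPM in WT, 34.7, 35 and 45 CPM in Het and 27.2, 32.7 and 48.9 CPM in KO (-0.26, SE 0.16, edgeR adjusted p = 0.993), again with KO 1 lowest. RG-like values were 3.37, 2.16 and 3.62 CPM in WT, 2.69, 1.81 and 2.55 CPM in Het and 3.29, 1.45 and 3.18 CPM in KO (-0.21, SE 0.308, edgeR adjusted p = 1). Overlap between genotypes was seen in these classes except for the 3 Het animals in InhP-like nuclei, which were below WT. ExN-like nuclei had 8.9, 7.79 and 9.85 CPM in WT, 9.16, 7.62 and 9.51 CPM in Het and 8.15, 9.09 and 10.8 CPM in KO (0.12, SE 0.125, edgeR adjusted p = 0.772). InhN-like nuclei had 12.3, 11.6 and 11 CPM in WT, 9.63, 9.99 and 9.27 CPM in Het and 6.31, 12 and 11.3 CPM in KO (-0.18, SE 0.18, edgeR adjusted p = 0.948), and the Het animals were again below WT.

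Hes1 (ENSMUSG00000022528.8, chr16:30064384-30067796, plus strand), the target usually read as Notch output, was at 44, 31.8 and 39.6 CPM in WT, 36.8, 28.1 and 32.7 CPM in Het and 31.7, 32.9 and 33.9 CPM in KO RG-like nuclei. KO was not higher (-0.20, SE 0.115, edgeR adjusted p = 1), and the KO animals lay within or just below the WT range. eIP-like nuclei had 5.96, 1.57 and 2.9 CPM in WT, 2.72, 1.73 and 3.69 CPM in Het and 3.24, 1.24 and 2.85 CPM in KO (-0.41, SE 0.444, edgeR adjusted p = 0.993). In neurons Hes1 was near its detection limit: 0.956, 0.898 and 0.758 CPM in WT, 1.85, 0.726 and 0.419 CPM in Het and 0.721, 0.358 and 1.1 CPM in KO ExN-like nuclei (-0.20, SE 0.474, edgeR adjusted p = 0.912). In InhN-like nuclei it was at 0.875, 0.527 and 0.941 CPM in WT, 1.32, 0.268 and 0.358 CPM in Het and 1.39, 0.518 and 1.15 CPM in KO (0.38, SE 0.502, edgeR adjusted p = 0.964). With these SEs a modest change of Hes1 in neurons was not detectable at this depth. InhP-like nuclei held 7 counts of Hes1 in all and were not tested.

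Hes5 (ENSMUSG00000048001.7, chr4:154960923-154962371, plus strand) behaved alike. RG-like nuclei had 54, 35.5 and 47.7 CPM in WT, 40.8, 40 and 38.2 CPM in Het and 41.6, 37.1 and 50.2 CPM in KO (-0.06, SE 0.132, edgeR adjusted p = 1). eIP-like nuclei had 8.3, 3.41 and 4.78 CPM in WT, 5.62, 4.46 and 5.17 CPM in Het and 7.1, 3.87 and 5.41 CPM in KO (0.05, SE 0.289, edgeR adjusted p = 0.998). The genotypes overlapped in both. ExN-like nuclei had 1.85, 1.28 and 1.51 CPM in WT, 1.79, 0.781 and 1.2 CPM in Het and 1.8, 0.86 and 1.47 CPM in KO (-0.15, SE 0.296, edgeR adjusted p = 0.895). InhN-like nuclei had 2.69, 1.9 and 1.48 CPM in WT, 1.7, 1.41 and 1.37 CPM in Het and 3.04, 1.4 and 1.7 CPM in KO (-0.03, SE 0.293, edgeR adjusted p = 0.995). With 48 counts in all, Hes5 was under the filter in InhP-like nuclei.

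Hes6 (ENSMUSG00000067071.8, chr1:91411483-91414038, minus strand) had a negative KO change in all 5 classes and was called in none. eIP-like nuclei had 64.9, 57.1 and 74.8 CPM in WT, 62.3, 63.6 and 67.9 CPM in Het and 40.8, 68.1 and 69.7 CPM in KO, of which KO 1 alone was outside the WT range (-0.10, SE 0.15, edgeR adjusted p = 0.993). RG-like nuclei had 27.6, 17.6 and 21.6 CPM in WT, 21, 19.9 and 20.7 CPM in Het and 22.5, 16.4 and 20.5 CPM in KO (-0.15, SE 0.146, edgeR adjusted p = 1). InhP-like nuclei had 28.1, 16.9 and 36.3 CPM in WT, 31.9, 38.7 and 20 CPM in Het and 27.2, 19.2 and 25.6 CPM in KO (-0.18, SE 0.352, edgeR adjusted p = 1). These ranges overlapped. ExN-like nuclei had 14, 12.2 and 14 CPM in WT, 13.2, 12 and 13.1 CPM in Het and 10.3, 11.1 and 13.7 CPM in KO (-0.16, SE 0.104, edgeR adjusted p = 0.568). InhN-like nuclei had 14.6, 12.2 and 13.6 CPM in WT, 14.1, 10.3 and 12.2 CPM in Het and 11.6, 11.2 and 12.2 CPM in KO (-0.18, SE 0.113, edgeR adjusted p = 0.916), where KO 3 and WT 2 nearly touched.

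The remaining 18 members had no call in any class or cluster without the block. With it, Rfng was called in cluster 6, and Mfng in cluster 3 in the test over both genotype terms. Rfng was lower in KO without overlap in both neuron classes: 37.6, 30.6 and 34.6 CPM in WT and 29, 26.4 and 30.2 CPM in KO ExN-like nuclei (-0.24, SE 0.0877, edgeR adjusted p = 0.257). In InhN-like nuclei Rfng had 41.5, 32.7 and 34.8 CPM in WT and 26.7, 26.9 and 31 CPM in KO (-0.34, SE 0.0929, edgeR adjusted p = 0.556). The Het means lay between, from 31.3, 32.3 and 27.4 CPM in ExN-like and 34.8, 35.3 and 31.8 CPM in InhN-like nuclei. In RG-like nuclei Psen2, a catalytic gamma-secretase subunit, was at 5.54, 6.58 and 6.6 CPM in WT, 4.49, 5.7 and 6 CPM in Het and 4.93, 5.05 and 4.86 CPM in KO (-0.33, SE 0.164, edgeR adjusted p = 1). Mib1 there was at 238, 243 and 242 CPM in WT, 247, 237 and 253 CPM in Het and 256, 249 and 250 CPM in KO (0.08, SE 0.0517, edgeR adjusted p = 1). Each set of KO animals lay just outside the WT range. In eIP-like nuclei Hey1 was at 8.08, 7.61 and 7.17 CPM in WT, 9.24, 8.63 and 9.23 CPM in Het and 8.52, 8.29 and 10.3 CPM in KO (0.27, SE 0.153, edgeR adjusted p = 0.993). Notch4, Dll4 and Hey2 passed the count filter in 1 class each.

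Single clusters gave more resolution. In the 33 clusters with at least 20 nuclei in every animal, 647 tests of a member in a cluster gave 11 calls in KO against WT (1.70%), 10 higher and 1 lower, where 0.226% of all gene-by-cluster tests were called. The block gave 29 calls, 24 higher and 5 lower (4.48%, against 0.85%), in 13 clusters. The calls fell on 6 members, and Maml2 supplied 6 of the 11 calls. Without 1 animal the count ran from 3 to 12, with 3 calls without WT 1 or WT 3, 4 without KO 1 and 5 without WT 2 or KO 2. The clusters share the same 9 animals and are not independent. The members, Maml2 among them, were chosen with earlier results of these data known. These shares therefore do not test whether the members moved more than other genes.

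Cluster 3 (12937 nuclei, ExN-like) had 2 members called, where 0.999% of its genes were. Maml2 stood at 64.8, 55.8 and 51.4 CPM in WT, 63, 75.8 and 60.7 CPM in Het and 116, 107 and 94.2 CPM in KO. It rose by 0.92 (SE 0.113, edgeR adjusted p = 0.000634), a call kept under all 11 alternatives run on clusters. Notch2 was at 13.5, 12 and 12.1 CPM in WT, 16.5, 14.6 and 15.5 CPM in Het and 18.7, 18.4 and 19.4 CPM in KO, 3 levels that did not overlap (0.62, SE 0.134, edgeR adjusted p = 0.0319). With the block 7 members were called in cluster 3, against 4.2% of genes: Rbpj, Maml3 and Numb were added as higher and Jag2 and Dner as lower. The Notch2 call held without Het 1 or Het 2 and was lost without any other single animal (edgeR adjusted p up to 0.141).

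Cluster 6 (11105 nuclei, ExN-like, with Hs3st4 and Rgs6 among its leading genes) had 4 members called, where 3.01% of its genes were. Numb was at 62.8, 59.9 and 62.8 CPM in WT, 70.7, 67.7 and 59.4 CPM in Het and 91.2, 82.6 and 87 CPM in KO (0.52, SE 0.0838, edgeR adjusted p = 0.00425). Jag2 was at 17.5, 14 and 16 CPM in WT, 13.2, 12.7 and 12.3 CPM in Het and 4.88, 5.5 and 9.69 CPM in KO, a change of -1.12 (SE 0.204, edgeR adjusted p = 0.00744). Both calls were kept under all 11 alternatives, and for Jag2 the 3 genotypes were apart. Rbpj was at 112, 109 and 111 CPM in WT, 132, 144 and 113 CPM in Het and 152, 150 and 131 CPM in KO (0.41, SE 0.0989, edgeR adjusted p = 0.0374). Maml3 was at 42.9, 39.2 and 40.8 CPM in WT, 61.6, 47.7 and 59.5 CPM in Het and 71.6, 44.4 and 61.4 CPM in KO (0.55, SE 0.137, edgeR adjusted p = 0.0473), with KO and Het overlapping. With the block 7 members were called, against 8.67% of genes: Notch2 and Maml2 were added as higher and Rfng as lower. The Rbpj and Maml3 calls were lost without any one of WT 1, WT 2, WT 3 or KO 1, that of Rbpj also without KO 2 and that of Maml3 without Het 3 or KO 3 (edgeR adjusted p up to 0.158).

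The other 5 calls were of Maml2, each upward. In cluster 1 (13480 nuclei, ExN-like, led by Tfap2d) it was at 106, 95.4 and 98.8 CPM in WT, 111, 124 and 121 CPM in Het and 154, 115 and 155 CPM in KO (0.53, SE 0.102, edgeR adjusted p = 0.0303, 0.426% of genes called). In cluster 11 (5717 nuclei, ExN-like, led by Slit3) it was at 103, 111 and 105 CPM in WT, 116, 132 and 134 CPM in Het and 192, 187 and 152 CPM in KO (0.75, SE 0.108, edgeR adjusted p = 0.0241, 0.0259% of genes called). In cluster 8 (8506 nuclei, InhN-like, led by Nxph2, Maf and Nxph1, as in cortical interneurons) it was at 51.5, 49 and 49.7 CPM in WT, 58.6, 58.3 and 37.5 CPM in Het and 92.5, 87.6 and 67.5 CPM in KO (0.75, SE 0.154, edgeR adjusted p = 0.0308, 0.46% of genes called). The KO animals were above all WT animals in each, and the Het animals stood above WT in clusters 1 and 11. In the unnamed cluster 17 (4227 nuclei, led by Sim1) Maml2 was at 46.9, 64.9 and 45.8 CPM in WT, 86.9, 67 and 58.2 CPM in Het and 126, 102 and 91.2 CPM in KO (1.03, SE 0.18, edgeR adjusted p = 0.0268, 0.184% of genes called). In the unnamed cluster 27 (2027 nuclei, led by Pappa2 and Barhl2) it was at 105, 140 and 129 CPM in WT, 132, 101 and 169 CPM in Het and 216, 217 and 202 CPM in KO (0.80, SE 0.16, edgeR adjusted p = 0.0318, 0.326% of genes called). Each of these 5 calls was lost without WT 1, without WT 3 and without KO 1 (edgeR adjusted p up to 0.196). Leaving out WT 2 ended those in clusters 1, 8 and 11, KO 2 those in clusters 8, 11, 17 and 27, KO 3 those in clusters 1 and 27, and Het 3 that in cluster 1.

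Across the 33 clusters the KO change of Rbpj was positive in all 33, from 0.01 to 0.59 with a median of 0.22, and those of Maml2 and Numb in 31 each. Maml2 had a median change of 0.46 and a largest of 1.03. Of the 2908 genes tested in every cluster, 0.344% were higher in all 33 and 3.30% in 31 or more. Of the 7 members tested in every cluster, 3 reached 31. Since the members were chosen with earlier results known, this is not a test against other genes. Jag2 was lower in 20 of the 22 clusters in which it was tested, with a median of -0.38, and Rfng in 26 of 31, with a median of -0.29. Hes6 was lower in 22 of 27 and Psen2 in 15 of 18, while Maml3 was higher in 29 of 33. No share over all genes was taken for these tallies. Notch1 had no such direction, with 12 clusters higher and 16 lower of 30. Hes1 could be tested in 5 clusters and was lower in 4 (median -0.19), and Hes5 was higher in 5 of 7 (median 0.02). Maml2, Maml3, Rbpj and Numb, mostly higher, span 411, 419, 191 and 128 kb. Jag2, Rfng, Hes6 and Psen2, mostly lower, span 22.0, 3.46, 2.56 and 36.4 kb. Dner, at 326 kb, went the other way, lower in 19 of 33. Whether gene length bears on these directions was not tested.

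**Figure D5:**
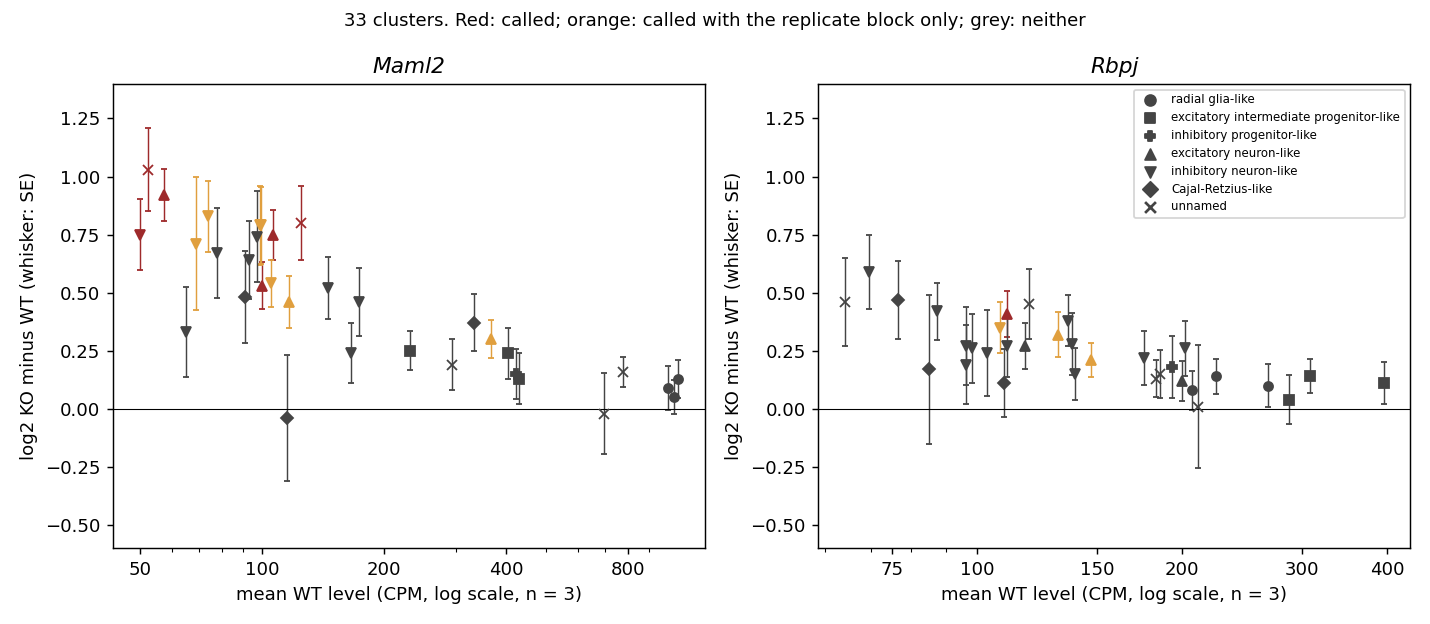
log2 change of KO against WT with SE (y axis) for Maml2 and Rbpj in each of 33 clusters, plotted against the mean WT level of the gene in that cluster in CPM (x axis, log scale). Points of Rbpj are all above 0, and the largest Maml2 changes, 1.03 and 0.92, are in clusters with WT means of 52.5 and 57.3 CPM.

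Whether the KO effect itself differed between classes was tested with an interaction term, with the animal as a block. Between InhN-like and ExN-like nuclei 0 of 28 members passed in edgeR, where 0.00994% of all genes did, and 4 had an unadjusted p under 0.05, as had 6.01% of genes. These were Jag2, whose change was 0.42 less negative in InhN-like nuclei (SE 0.109, edgeR adjusted p = 0.38), Maml2, 0.24 more positive there (SE 0.0762, edgeR adjusted p = 0.572), Dner, 0.22 more positive there (SE 0.0695, edgeR adjusted p = 0.542), and Numb, at -0.13 (SE 0.056, edgeR adjusted p = 0.774). Between ExN-like and RG-like nuclei 0 of 29 members passed, where 0.49% of all genes did, and 5 had an unadjusted p under 0.05 in edgeR, as had 9.24% of genes. Maml2 was nearest, with a change 0.30 larger in the neurons (SE 0.0712, edgeR adjusted p = 0.093), followed by Numb at 0.23 (SE 0.0614, edgeR adjusted p = 0.156) and Rbpj at 0.18 (SE 0.0579, edgeR adjusted p = 0.286). Without WT 1 the Maml2 difference passed (edgeR adjusted p = 0.027). The data thus did not show, by this test, that any member responds in one class and not in another.

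In Het against WT 0 members were called in any of the 6 classes or 33 clusters by edgeR, with the block or by DESeq2, and the smallest adjusted p over the classes in edgeR was 1. Over all genes 0% were called in each class by edgeR. In single clusters edgeR called at most 1 gene, in cluster 11 (of 11564 tested) and cluster 19 (of 8196). The block called at most 5 genes, in cluster 2 (of 13955), and DESeq2 at most 1, in clusters 3 and 11. Over the classes the block called 0.0369% of genes in ExN-like, 0.00528% in InhN-like and 0% in the other classes, and DESeq2 called 0.00316% in CR-like and 0% in the others. Without adjustment, p was under 0.05 for 2 members in ExN-like nuclei (3.21% of genes), 1 in InhN-like (1.8%), 1 in eIP-like (2.52%), 1 in InhP-like (3.9%) and 0 in RG-like (2.06%) and CR-like nuclei (3%). Without a call, the 3 Het animals stood apart from the 3 WT animals in 12 cases. In InhN-like nuclei Maml2 and Rbpj were higher (0.24 and 0.17) and Dll3 and Mfng lower (-0.25 and -0.18), where 7.14% of all genes did not overlap. In InhP-like nuclei Rbpj and Maml2 were higher (0.25 and 0.15) and Dll3 lower (-0.47), where 9.67% of genes did not overlap. In eIP-like nuclei Hey1 and Numb were higher (0.27 and 0.15, against 8.38% of genes), and in ExN-like nuclei Mfng and Mib1 were (0.31 and 0.05, against 9.4%). Nrarp was lower in RG-like nuclei (-0.25, against 7.17%), and 0 members stood apart in CR-like nuclei, against 8.09% of genes. The test over both genotype terms, which asks for any difference among the 3 genotypes, called Maml2 in ExN-like nuclei (1 of 27, where 0.379% of genes were) and 0 members in the other classes, where 0.00528% of genes were called in InhN-like, 0.0332% in CR-like and 0% in the progenitor classes. That call was lost without any one of WT 2, WT 3, Het 1, Het 3, KO 1 or KO 2, and with the block it became 6 calls in ExN-like nuclei, against 4.51% of genes, and 1 in InhN-like nuclei, against 0.253%. In the clusters the same test gave 5 member calls (Maml2 in clusters 3, 8 and 11, Numb and Jag2 in cluster 6), where 0.117% of gene-by-cluster tests were called, and 23 with the block, against 0.554%.

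A further list of 41 genes of the pathway was examined in the same fits, among them other ligands, ligases and corepressors. In ExN-like nuclei 1 of the 36 tested was called in KO against WT, where 1.02% of all genes were, and 5 with the block (Hdac1, Ctbp1, Dtx1, Dlk2 and Neurl1a), against 6.71%. In InhN-like nuclei 0 of 36 were called, and Dlk2 alone with the block, against 0.818% of genes. The gene called in ExN-like nuclei without the block was Dlk2, a Delta-like protein without the receptor-activating domain of the canonical ligands, which fell from 9.62, 8.18 and 8.71 CPM in WT through 8.33, 6.84 and 6.58 CPM in Het to 4.47, 3.96 and 6.31 CPM in KO (-0.80, SE 0.153, edgeR adjusted p = 0.0267). In cluster 6, with 3 of 35 called (3.01% of all genes) and 9 with the block (8.67%), Dlk2 also fell (-1.12, SE 0.21, edgeR adjusted p = 0.00923), as did Neurl1a, a ligand-directed ubiquitin ligase (-0.97, SE 0.203, edgeR adjusted p = 0.018), while Ncor1, a corepressor, rose (0.30, SE 0.0688, edgeR adjusted p = 0.0319). Ctbp1, another corepressor, fell in cluster 3 (-0.45, SE 0.1, edgeR adjusted p = 0.0393). Dlk1 rose in the unnamed cluster 27 (1.51, SE 0.278, edgeR adjusted p = 0.0186). None of these calls held in all 9 fits that left out 1 animal. Dlk2 in ExN-like nuclei and Ncor1 were lost without WT 1, WT 2, WT 3, KO 1 or KO 2, Ctbp1 without any animal but KO 3, Neurl1a without WT 3, KO 2 or KO 3, Dlk1 without WT 2, WT 3 or KO 3, and Dlk2 in cluster 6 without KO 2 alone (edgeR adjusted p = 0.0515).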

How the data were processed

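Nuclei of E14 forebrain from 3 WT, 3 Het and 3 KO mice were barcoded with the ScaleBio combinatorial method and sequenced in 2 runs. The authors aligned reads to mm10 with the ScaleRna workflow, selected barcodes with its cell caller to account for ambient RNA, and deposited a matrix of expected counts per library, of which 6.70 to 8.71% of entries are not whole. The submitters' processing notes also name Seurat 4.3.0, Scanpy 1.12.0 and DESeq2 1.38.3. No depth correction had been applied, and no source read here explains the entries that are not whole.

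The limits on nuclei followed the study's methods: 800 to 6000 UMIs, 300 to 3000 genes, at most 1% mitochondrial counts and a log ratio of genes to UMIs of at least 0.9. The 5% of barcodes with the highest Scrublet score (scanpy 1.11.5) were then removed as doublets. The number of nuclei kept therefore need not be the study's. Nuclei were clustered on 3000 variable genes, without Myt1l, sex-linked genes and the 31 members, with 50 principal components, 20 neighbours and Leiden resolution 1 (igraph 0.11.9). Clusters were named from fixed marker lists, and names may differ from the study's.

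The counts of both runs were summed per animal and class or cluster with at least 20 nuclei in every animal, rounded and tested with edgeR 4.0.16 (R 4.3.3, filterByExpr, TMM, quasi-likelihood test, genotype alone as in the study), with Benjamini-Hochberg adjustment over all genes tested. A call needed an adjusted p under 0.05 and a log2 change beyond 0.2. The scripts were tested on simulated data. Median depth was 3496 UMIs per nucleus in run 1 and 2321 in run 2, and KO 1 had the fewest UMIs. The labels say the 9 animals are separate but name no litter. Littermates therefore could not be told from other animals, and litter was not modelled. The p-values measure the spread between these animals and treat them as independent.

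Replicate numbers were checked for pairing: in radial glia-like, excitatory intermediate progenitor-like and both neuron classes, the deviations of same-numbered animals from their group means correlated at r = 0.106 to 0.311 in all 9 pairs per class, against -0.242 to 0.065 for other pairs. In inhibitory progenitor-like and Cajal-Retzius-like nuclei they did not all exceed 0.1. The pairing is read from the data, not from the labels. Deviations cancel within a group, so the values of the other pairs are not independent of those of same-numbered pairs. Alternatives were DESeq2 1.42.0, other scaling, no low-count filter, the replicate block, 6 animals, each animal left out, each run alone, no upper limits, no doublet removal and clustering with the members.

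The 31 members, the 13 given in full and the further 41 genes were chosen with earlier results of these data known. The 13 are 9 set by role and every member called in a class or cluster without the block.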

Additional observations from a re-analysis of the deposited data

Results flagged for a closer look

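Mib2, a ubiquitin ligase, stood apart from WT in opposite directions in 2 classes of KO nuclei, without a call in either. In eIP-like nuclei it was at 13.6, 14.5 and 15.5 CPM in WT, 21.4, 16.4 and 12.4 CPM in Het and 16.4, 18 and 16.6 CPM in KO, so that every KO animal was higher than every WT animal (log2 change 0.24, edgeR adjusted p = 0.993). In CR-like nuclei it was at 25, 23.6 and 22.4 CPM in WT, 22.9, 16.9 and 13.9 CPM in Het and 15.1, 15.4 and 22.2 CPM in KO, and every KO animal was lower (-0.40, edgeR adjusted p = 0.774). In CR-like nuclei KO 3 was only just below WT 3. Of all genes, 9.02% in eIP-like and 13% in CR-like nuclei did not overlap between KO and WT. The difference between the 2 classes was not tested.

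Mfng, a fringe glycosyltransferase, stood apart from WT in opposite directions in Het, also without a call. In ExN-like nuclei it was at 10.5, 9.26 and 10.5 CPM in WT, 13.1, 12.3 and 11.7 CPM in Het and 9.9, 13.4 and 10.4 CPM in KO, with every Het animal higher than every WT animal (0.31, edgeR adjusted p = 1). In InhN-like nuclei it was at 13.1, 15.9 and 14 CPM in WT, 12.9, 12.5 and 12.2 CPM in Het and 12.5, 17 and 14.2 CPM in KO, with every Het animal lower (-0.18, edgeR adjusted p = 1). Of all genes, 9.4% in ExN-like and 7.14% in InhN-like nuclei did not overlap between Het and WT. The difference of Mfng between the classes was not tested either, and the KO animals of both classes overlapped WT.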

How the results depend on the processing

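Calls of members in KO against WT depended on the fit. For these calls, shares over all genes are given above for the block and DESeq2 but not for the other settings. The counts thus do not show whether the members moved more than genes at large. Over the 6 classes 2 calls became 8 with the replicate block, 6 without the low-count filter, 4 in DESeq2, 1 with only the 6 animals compared, 1 without upper limits on UMIs and genes and 0 in run 1 alone, and 0 to 4 without 1 animal. In ExN-like nuclei 2 calls became 6 with the block, 5 without the filter, 1 with 6 animals, 1 without upper limits, 1 in run 2 alone, 0 in run 1 alone, and 0 to 3 without 1 animal (0 without WT 3 or KO 2, 3 without KO 3). In InhN-like nuclei 0 calls became 2 with the block, 1 in DESeq2, 1 without the filter, 1 in run 2 alone, and 0 to 1 without 1 animal (1 without KO 3). In the clusters 11 calls became 29 with the block and 3 to 12 without 1 animal. The test over both genotype terms went from 1 call over the classes to 7 with the block, 5 without the filter, 3 in DESeq2, 0 in run 1 alone and 0 to 1 without 1 animal. In ExN-like nuclei its 1 call became 6, 4, 2 and 0 under the same changes, again 0 to 1 without 1 animal, and in InhN-like nuclei 0 became 1 with the block, without the filter and in DESeq2. The differences in KO effect between neuron classes went from 0 members to 1 without the filter (Dner). Over all genes the calls there went from 2 of 20112 to 260 of 44462. Differences between ExN-like and RG-like nuclei went from 0 members to 2 without the filter (Notch2 and Maml2) and to 1 in run 2 alone (Maml2). They went to 0 to 1 without 1 animal (1 without WT 1, Maml2). Over all genes these calls went from 95 of 19385 to 202 of 43548 without the filter, 95 of 17862 in run 2 alone and 49 of 19752 without WT 1. The causes were not tested, except that run 1 alone holds 37956 nuclei against 194494 and that fits with fewer animals have fewer degrees of freedom. The block changed no other call of members in the classes, and Het stayed at 0 calls under every alternative run.

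For the 13 members given in full, 1312 of the alternative values by class kept their side of the threshold and the direction of any call, 15 gained a call, 14 lost one and 0 reversed. Of the 1288 values called in neither fit, 74 differed in sign from the fit without alternatives. The 11 cluster calls were kept in 77 alternatives and lost in 43, and DESeq2 gave no adjusted p for 1. Maml2 and Jag2 in ExN-like nuclei were not called in run 1 alone (edgeR adjusted p = 0.512 and 0.535). Clustering with the members left 97.6% of nuclei in the class of the same name. Members under about 2 CPM in a class, such as Hes1 in neurons, have SEs of up to 0.502 on the log2 scale, so modest changes of them could not be seen.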

Other observations

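Within RG-like nuclei, ligand and target transcripts were read in the same nucleus. After each nucleus was thinned to 1500 UMIs, 24905 RG-like nuclei remained and 971 of them had a Dll1 UMI. Hes6 was detected in 9.58% of nuclei with Dll1 and in 2.58% of those without, higher in 9 of 9 animals. Notch1 was detected in 42.1% and 34.9%, also higher in 9 of 9 animals. Hes1 showed the opposite tendency, at 3.09% of nuclei with Dll1 and 5.01% of those without, higher in 1 of 9 animals, while Hes5 was at 7.42% and 6.06%, higher in 6 of 9. Within cluster 9 the Hes5 shares ran the other way, at 6.69% and 7.97%, higher in 3 of 9 animals. In clusters 0 and 7 they were 7.43% and 5.26% (4 of 6) and 7.87% and 6.12% (7 of 9). Notch1 was higher in 5 of 6, 7 of 9 and 8 of 9 animals within clusters 0, 7 and 9. The same Dll1 and Hes6 comparison in eIP-like nuclei gave 13.4% and 8.34%, higher in 9 of 9 animals. Within cluster 4, which held 10025 of the 17173 thinned eIP-like nuclei, the shares were 5.69% and 5.42%, higher in 4 of 9 animals, against 19.4% and 16.8% in cluster 14 and 14% and 9.77% in cluster 18, each higher in 7 of 9. Shares of nuclei with a UMI rest on sparse counts, and the class mixes clusters with different Dll1 levels: within cluster 0 the Hes6 shares were 6.93% and 1.82% (higher in 5 of the 6 animals with at least 20 such nuclei), within cluster 7 they were 7.66% and 3.77% (higher in 7 of 9) and within cluster 9 they were 14.4% and 3.18% (higher in 9 of 9). As a background, Notch1 was detected in 4.72%, Hes6 in 1.89% and Dll1, Hes1 and Hes5 each in 0 of 212 thinned microglia and macrophage-like nuclei, where 0 allows a share of up to 1.42% with a UMI (counting error only), so that the Hes6 share of nuclei without Dll1 is near the level of a class that should lack it. Before thinning the median depth was 2443 UMIs in RG-like and 2113 UMIs in microglia and macrophage-like nuclei.

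Rare classes held high levels of single members. In oligodendrocyte progenitor-like nuclei (201 nuclei, pooled over animals) Maml2 stood at 3259 CPM, and in microglia and macrophage-like nuclei (288 nuclei) Rbpj was at 602 CPM and Numb at 723 CPM. In mural and fibroblast-like nuclei (414 nuclei) Heyl was at 132 CPM and Jag1 at 182 CPM, against at most 0.253 CPM of Heyl in the 6 larger classes. These values have no spread over animals and no test, and 116 of the 414 mural and fibroblast-like nuclei came from KO 1.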
